A study of Mus musculus with 3647 samples.

Results

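GABAergic interneurons of the somatosensory cortex were represented by 89 single nuclei on 2 plates. They came from mouse somatosensory cortex nuclei that had been sorted on a violet nuclear stain and GFP and are named Pvalb+ in the design text. A nucleus was kept when Snap25, Gad1 and Gad2 all had values above 0 and when the sum of Gad1 and Gad2 was above Slc17a7. The 89 were 59.7% of the somatosensory nuclei with expression values (95% interval 51.4 to 67.7%), and 2653 of 3647 samples in the whole study had values. Plate scxP9 gave 43 of 76 nuclei and plate scxP10 gave 46 of 73. The study profiled nuclei of the thalamic reticular nucleus, a shell of GABAergic neurons around the thalamus, and GFP-sorted nuclei from other regions. Of those, 93 nuclei from M2 cortex on 3 plates (55.4%) and 24.8% of 440 nuclei from hippocampus on 7 plates met the same rule and serve here as the comparison. All 3 groups carry the sort label Violet+, GFP+, so nuclei that lack GFP are in none of them. The labels give no genotype, strain, age, sex or GFP driver and name no animal, so each region counts as 1 sample, the spread between plates may be technical, and no test between regions was made.

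Cortical GABAergic interneurons release GABA onto nearby neurons and set the timing and gain of cortical activity. A large class arises in the medial ganglionic eminence and includes fast-spiking basket and chandelier cells, which carry the calcium buffer parvalbumin (Pvalb), and somatostatin cells; Vip, Lamp5 and serotonin receptor 3a cells arise mostly elsewhere. Fast-spiking cells are known for Kv3 potassium channels, the fast vesicle calcium sensor synaptotagmin 2 and a perineuronal net of chondroitin sulphate proteoglycans.

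Values are TPM, the share of transcripts of a nucleus scaled to a fixed total, of nuclear RNA from a modified Smart-seq2 protocol, which reads whole transcripts and not their ends. A gene was counted as found in a nucleus when its TPM was above 0, and shares carry exact Clopper-Pearson 95% intervals, which cover counting error over nuclei only. Read depth is unknown from TPM, and the number of detected genes stands in for it. Members had a median of 4112 detected genes (2634 to 5627), with 4112 on scxP9 and 4089 on scxP10. The median was 4217 in M2 members and 5176 in hippocampal members, so a share in hippocampal nuclei was read from more detected genes. Nuclei of 1 plate share their source and are not replicates of a region.

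The genes that chose the members are described first, with no weight as evidence. The smallest sum of Gad1 and Gad2 in a member was 34.06 TPM, with Slc17a7 at 0. The lowest Gad1 value was 4.27 TPM, the lowest Gad2 value 0.75 TPM and the lowest Snap25 value 9.89 TPM. Slc17a7, the vesicular glutamate transporter of most cortical excitatory neurons, was above 0 in 4 members, and its highest value of 30.61 TPM stood beside a Gad sum of 1164.58 TPM. Gad1 and Gad2 encode the enzymes that make GABA. Gad1 had a lowest, median and highest value of 4.27, 651.5 and 1823 TPM on scxP9 and 7.04, 589.2 and 2347 TPM on scxP10. Gad2 had 1.88, 141.7 and 786.8 TPM on scxP9 and 0.75, 86.1 and 741.9 TPM on scxP10. The levels of both genes overlapped widely between the plates.

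The 60 nuclei outside the rule were of several kinds. In 25 Gad1 was above 0 and Gad2 was at 0, and of these 19 had Pvalb, 8 had Tac1 and 0 had Slc17a7. In 15 Gad2 was above 0 and Gad1 was at 0, and of these 10 had Slc17a7 and 1 had Pvalb. In 16 both Gad genes were at 0, and 12 of these had Slc17a7. The last 4, all on scxP9, had both Gad genes but Snap25 at 0. No nucleus with both Gad genes and Snap25 failed the comparison with Slc17a7. Just outside the rule stood a nucleus with a Gad1 value of 1534.08 TPM and Gad2 at 0, and one with a Gad2 value of 383.44 TPM and Gad1 at 0. Most nuclei with Gad1 alone thus carried Pvalb and none carried Slc17a7, and most of those with Gad2 alone carried Slc17a7.

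**Figure D1:**
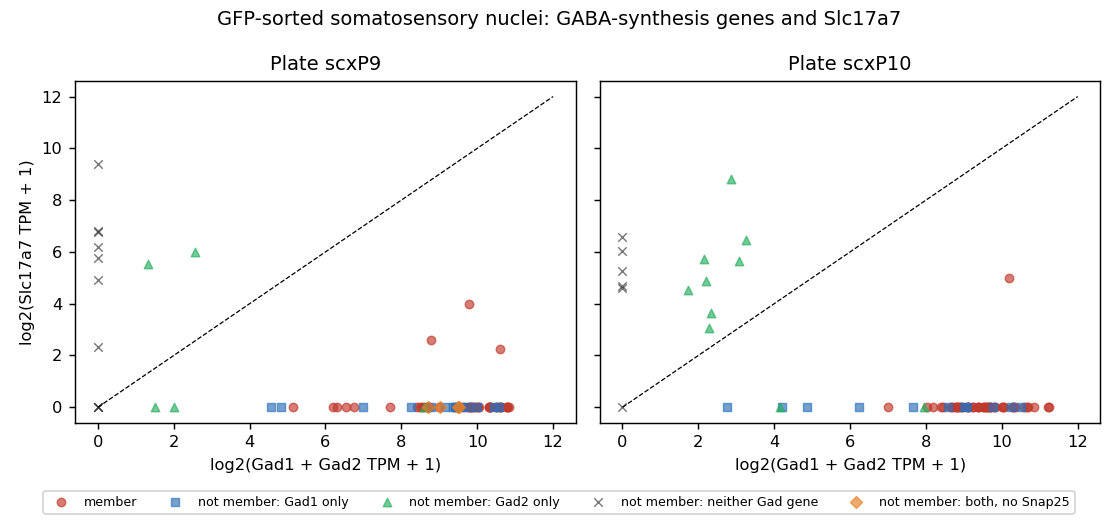
Each point is 1 nucleus, with log2(Gad1 plus Gad2 TPM + 1) across and log2(Slc17a7 TPM + 1) up, for plates scxP9 and scxP10. All members but 4 have Slc17a7 at 0, those 4 lie below the dashed line of equal values, and nuclei with Slc17a7 above that line have few or no Gad transcripts.

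Other genes of the GABAergic phenotype were found in part of the members. Slc32a1, the vesicular GABA transporter, was found in 27 of 89 (30.3%, 21 to 41%), against 47.3% of M2 and 48.6% of hippocampal members. Among M2 plates its share ran from 10.5% on pfcP4 to 77.3% on X061616p1, and both somatosensory plates (27.9% and 32.6%) lay between them. Abat, the enzyme that breaks GABA down, was found in 50 of 89 (56.2%, 45.3 to 66.7%) members, against 75.3% of M2 and 75.2% of hippocampal members. The homeobox genes Dlx1 and Dlx5 were found in 41.6% and 34.8% of members.

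Genes of the medial ganglionic eminence lineage were found in part of the members. Lhx6, the homeobox gene that these cells keep into adulthood, was found in 43 of 89 (48.3%, 37.6 to 59.2%) members, with 46.5% on scxP9 and 50% on scxP10. Satb1, a chromatin organiser downstream of Lhx6, was found in 77.5% of members. The neuregulin receptor gene Erbb4 was found in 80.9% and Sox6, a transcription factor for the positioning and maturation of these interneurons, in 41.6%. Of members with Pvalb 33 of 63 had Lhx6, and of those without it 10 of 26. Nkx2-1, which specifies the eminence before birth, was found in 31.5%, but at a median of 11.3 TPM where found and in 43.3% of nuclei outside the rule.

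Of 12 listed markers of fast-spiking Pvalb cells, 8 were found in at least 50% of members. Pvalb (chr15:78191114-78206400, minus strand, GRCm38) was found in 63 of 89 (70.8%, 60.2 to 79.9%) members, with 76.7% on scxP9 and 65.2% on scxP10. Its lowest, median and highest values were 0, 85.7 and 1535 TPM on scxP9 and 0, 74.7 and 767.4 TPM on scxP10. Both plates held nuclei at 0 and nuclei far above the median, so the sort name Pvalb+ did not correspond to a detected Pvalb transcript in every nucleus. In the 60 nuclei outside the rule Pvalb was found in 43.3%, including 4 of the 16 with neither Gad gene. Its share was 65.6% in M2 and 61.5% in hippocampal members.

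The Kv3 channel genes Kcnc1 and Kcnc2, which give fast-spiking cells their brief action potentials, were found in 100% and 98.9% of members. The axonal Kv1 gene Kcna1 was found in 80.9%, the secreted guidance gene Slit2 in 69.7% and the vesicle release regulator Cplx1 in 66.3%. Syt2 was found in 50 of 89 (56.2%, 45.3 to 66.7%) members. The mitochondrial coactivator Ppargc1a was found in 58.4% and the neurofilament gene Nefh in 43.8%. Other listed markers of Pvalb cells were less frequent. Cox6a2 was found in 25.6% of scxP9 and 21.7% of scxP10 members, and Tmem132c in 23.3% and 19.6%. Pthlh, which also stands on the chandelier list, was found in 6 of 89. Of 6 listed chandelier cell markers, Pde1a was found in 33 members and Kctd14 in 20, at medians of 4.48 and 8.12 TPM where found. Rasgrp1 was found in 13 members, Unc5b and Pthlh in 6 each and Vipr2 in 2. Syt15, named as a marker of these nuclei, was found in 38 of 89 (42.7%, 32.3 to 53.6%) at a median of only 5.65 TPM where found, against 35.5% of M2 and 31.2% of hippocampal members. The label of GABAergic interneurons was thus met by Pvalb and the Kv3 genes in most members and by Lhx6 in 43 of 89. Kcnc1 was shared widely. It was found in 89.5 to 97.7% of members on M2 plates, 90 to 95.2% on hippocampal plates and all 26 somatosensory members without Pvalb. Syt15 was a low and widely shared marker.

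**Figure D2:**
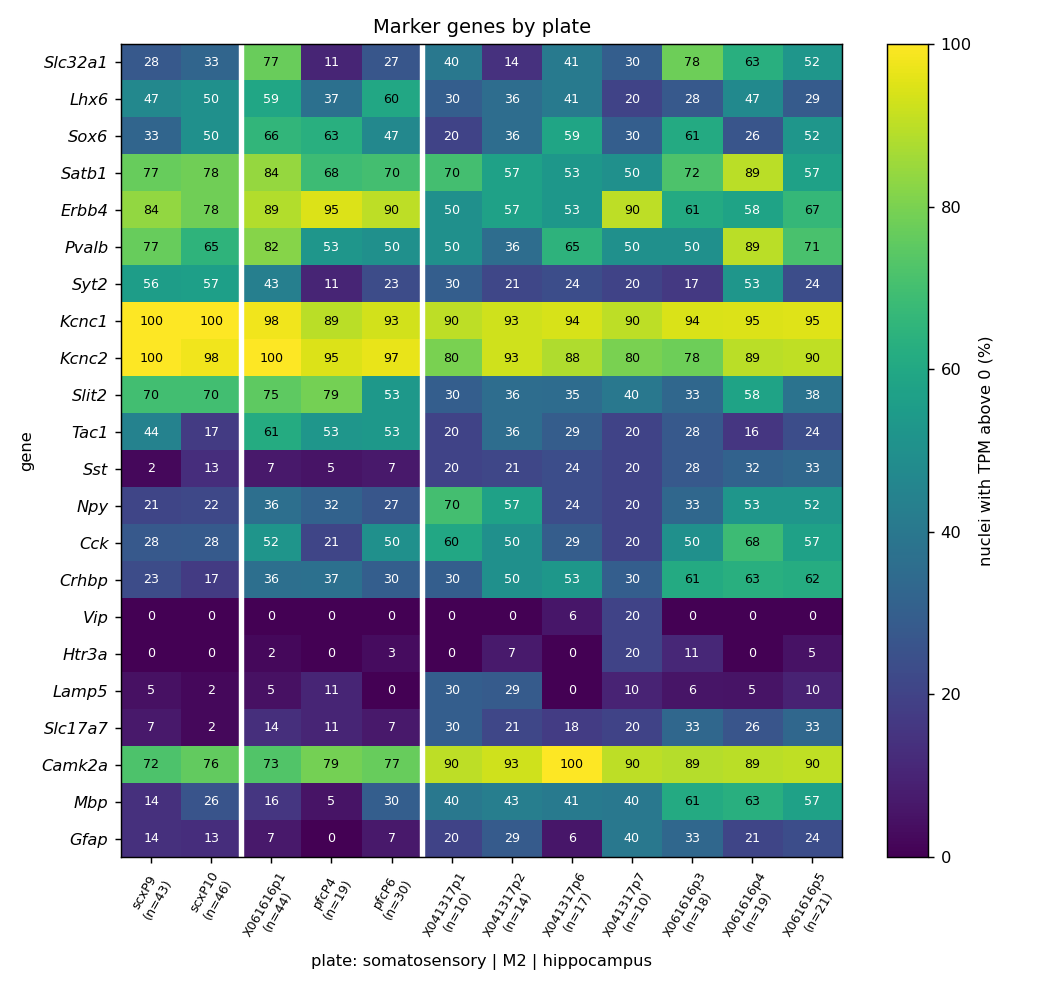
Share of rule-selected nuclei with TPM above 0 for marker genes (rows) on each plate (columns: 2 somatosensory, then 3 M2, then 7 hippocampal plates, with the number of nuclei). Vip and Htr3a are at 0 on both somatosensory plates, and Tac1 differs between scxP9 (44%) and scxP10 (17%).

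Many markers of other interneuron classes were rare or absent. Vip, Htr3a, Crh, Sncg and Tac2 were each found in 0 of 89 members, where a count of 0 allows 3 of 89, or 3.37%, of nuclei with a detected transcript, as were Ndnf of the neurogliaform class and Chodl of long-range somatostatin cells. Calb2, Prox1 and Adarb2 were each found in 1 member and Lamp5 in 3. Sst was found in 7 of 89 (7.87%, 3.22 to 15.5%) members, 1 on scxP9 and 6 on scxP10. Of these 7 nuclei, 2 had Pvalb, 0 had Tac1, 0 had Syt2 and all 7 had Satb1. Reln, a secreted glycoprotein of several interneuron classes, was found in 5 of 63 members with Pvalb and 8 of 26 without it, and Calb1 in 6 of 63 and 7 of 26. The nuclei without Pvalb therefore held most of the Sst and Reln, on counts too small to compare by plate.

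Some genes of the excitatory list were absent and others frequent, and few members had 3 or more markers of a glial list. Neurod1, Tbr1, Fezf2 and Emx1 were at 0 in all 89. Cux2, Slc30a3 and Camk2a, which stand on the same excitatory list, were found in 47.2%, 66.3% and 74.2% of members, against 62.4%, 62.4% and 75.3% of M2 members. Over the 16 excitatory genes the summed level was 357.3 TPM at the median and ran from 0 to 1739 TPM in members, against a median of 528.2 TPM in M2 and 553.6 TPM in hippocampal members. At least 3 markers of 1 glial, vascular or ependymal list stood at 10 TPM or more in 8 of 89 members, 4 on each plate (9%), against 5 of 93 M2 (5.38%) and 33.9% of hippocampal members. Mbp of myelin was found in 20.2% of members, against 51.4% of hippocampal members. Single glial genes were more frequent. Ermn of the oligodendrocyte list was found in 48.8% of scxP9 and 47.8% of scxP10 members, and Slc1a2 of the astrocyte list in 39.5% and 26.1%. No oligodendrocyte marker reached 10 TPM in 56 of 89 members, and no astrocyte marker in 61 of 89. In M2 these counts were 60 and 65 of 93. The part of glial RNA in the hippocampal comparison was not tested beyond the counts without such nuclei given at that comparison.

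Pvalb and Tac1 split the members unevenly. Tac1 (chr6:7554879-7565834, plus strand, GRCm38) encodes the precursor of substance P and neurokinin A, which excite neurons through the receptor Tacr1. It was found in 27 of 89 (30.3%, 21 to 41%) members, against 53 of 93 (57%, 46.3 to 67.2%) M2 and 24.8% (17 to 34%) of hippocampal members. Its lowest, median and highest values were 0, 0 and 3755 TPM on scxP9 and 0, 0 and 3580.2 TPM on scxP10. The plates differed: Tac1 was found in 44.2% of scxP9 members and 17.4% of scxP10 members, although both had nearly the same median of detected genes. Where found it was abundant, at a median of 908.9 TPM on scxP9 and 396.6 TPM on scxP10, so scxP9 was higher both in how many nuclei had it and in its median there, over 19 nuclei on scxP9 and 8 on scxP10.

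Of the 89 members, 21 had both genes, 42 had Pvalb alone, 6 had Tac1 alone and 20 had neither. On scxP9 the counts were 16, 17, 3 and 7, and on scxP10 they were 5, 25, 3 and 13. Tac1 was found in 33.3% of members with Pvalb and in 23.1% of those without it. On scxP10 the 2 shares were 16.7% and 18.8%, and on scxP9 48.5% and 30%. Spearman's rho between the 2 genes was 0.14 over 43 nuclei on scxP9 and 0.06 over 46 on scxP10, which is too weak in sparse values to be read as a relation. Both genes were found together in 23.6% of somatosensory members, against 43% of M2 members (40 of 93), where Tac1 was found in 65.6% of nuclei with Pvalb and 40.6% of those without it.

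**Figure D3:**
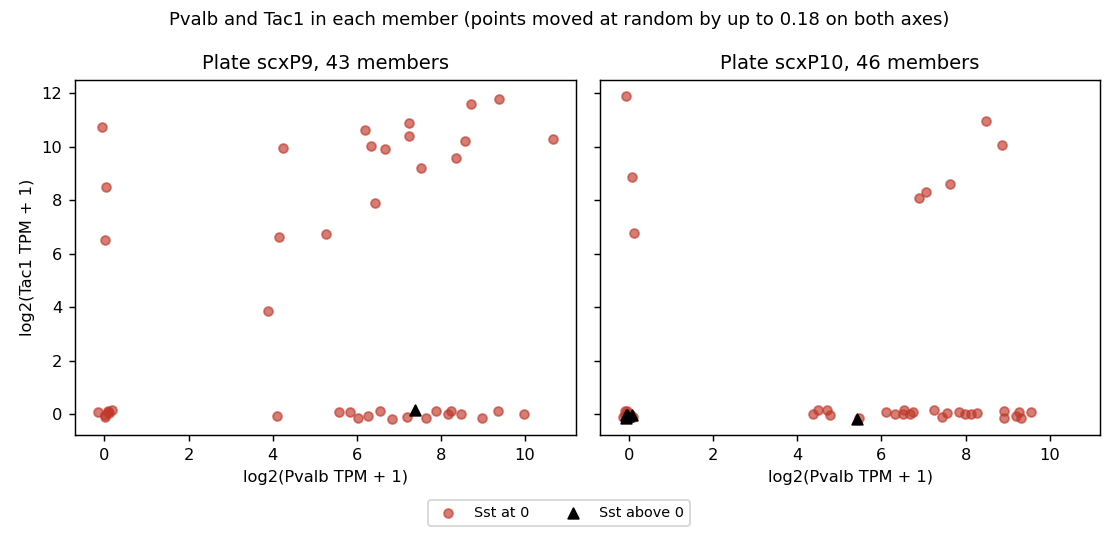
Each point is 1 member, with log2(Pvalb TPM + 1) across and log2(Tac1 TPM + 1) up; triangles have Sst above 0. Members with both genes number 16 on scxP9 and 5 on scxP10, and no nucleus with Sst has Tac1.

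Other peptides and synaptic genes divided the members in different ways. Npy, neuropeptide Y, was found in 19 members, of which 2 were among the 27 with Tac1 and 17 among the 62 without it. In M2 members the order was the other way, with Npy in 22 of 53 nuclei with Tac1 and 8 of 40 without it. Syt2 was found in 40 of 63 members with Pvalb (63.5%) and 10 of 26 without it (38.5%), and both plates had the same order (60.6% and 40% on scxP9, 66.7% and 37.5% on scxP10). Cck was found in 25 members, in 17 of 63 with Pvalb and 8 of 26 without it. Cort, the somatostatin relative, was found in 12 members and Crhbp, which binds corticotropin-releasing hormone, in 18. The opioid precursors Penk and Pdyn were found in 1 member each and Nts in 0.

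The tachykinin receptor Tacr1 was found in 49 of 89 (55.1%, 44.1 to 65.6%) members at a median of 5.47 TPM where found. Its share was 60.5% on scxP9 and 50% on scxP10, against 47.3% in M2 and 26.6% in hippocampal members. Tacr3 and the third tachykinin precursor Tac4 were found in 1 member each, and Tacr2 and Tac2 in 0. Ligand and receptor transcripts of this system were thus both present in the members, the receptor in more nuclei and at far lower TPM.

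Serotonin receptor transcripts were scattered, and most members with any had only 1. Serotonin receptors are G protein-coupled except for the Htr3 channels; the Htr1 family lowers and Htr4, Htr6 and Htr7 raise cyclic AMP, and the Htr2 family acts through phospholipase C. Of 14 receptor genes, at least 1 was found in 52 of 89 members (58.4%, 47.5 to 68.8%), and 37 members had none, 39 had 1, 11 had 2 and 2 had 3 or more. The share was 67.4% on scxP9 (29 of 43) and 50% on scxP10 (23 of 46). It was 58.1% in M2 members (54 of 93) and 77.1% in hippocampal members, which had more detected genes. Counting only values of at least 10 TPM, 47.2% of somatosensory, 46.2% of M2 and 63.3% of hippocampal members had a receptor.

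Htr2b was the most frequent receptor gene. It was found in 21 of 89 (23.6%, 15.2 to 33.8%) somatosensory members, against 8 of 93 (8.6%, 3.79 to 16.2%) M2 and 23.9% (16.2 to 33%) of hippocampal members. Its lowest, median and highest values were 0, 0 and 1007.6 TPM on scxP9 and 0, 0 and 977.3 TPM on scxP10, and where found it had a median of 229.6 TPM. Both somatosensory plates (20.9% and 26.1%) had higher shares than the 3 M2 plates (9.09%, 10.5% and 6.67%). Among members with 3500 to 5000 detected genes, a window chosen after seeing the data, the shares were 23.9%, 6.25% and 21.6% in somatosensory, M2 and hippocampal nuclei. Of the 21 members with Htr2b, 16 had Pvalb, 8 had Tac1 and 20 had Satb1.

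The position of Htr2b limits that reading. The gene (chr1:86099026-86111970, minus strand, GRCm38) lies wholly inside Psmd1, a proteasome subunit gene on the opposite strand, and 11.8% of its exonic length overlaps Psmd1 exons. Nothing read here states whether counting used strand, and Smart-seq2 does not mark strand, so reads from the 2 genes cannot be told apart where they overlap. Psmd1 was found in 17 of the 21 members with Htr2b, at a mean of 195.2 TPM, and in 39 of the 68 without it, at a mean of 235.9 TPM. Psmd1 was found in 62.9% of somatosensory, 61.3% of M2 and 73.4% of hippocampal members. The part of Psmd1 reads in the Htr2b values was not tested.

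The other receptor genes were each found in 10 members or fewer. Htr2a was found in 10 of 89 (11.2%, 5.52 to 19.7%) members, all 10 with Pvalb, against 10.8% of M2 and 11% of hippocampal members. Htr2a accompanied Pvalb in 8 of 10 M2 and 10 of 12 hippocampal nuclei as well. Htr2c was found in 7 members, 5 of them with Tac1, 4 on scxP9 and 1 on scxP10. In M2 members Htr2c stood with Tac1 in 6 nuclei and without it in 2, and in hippocampal members in 0 and 2. Htr1f was found in 8, 7 on scxP9 and 1 on scxP10, and Htr5a in 6. Htr3b was found in 8 without Htr3a, the subunit it needs to form a channel, and never above 9.34 TPM. Htr4 was found in 4 of 89 (4.49%, 1.24 to 11.1%) members, against 10.8% of M2 and 34.9% of hippocampal members. Among nuclei with 3000 to 6000 detected genes its shares were 4.65% in somatosensory, 11.4% in M2 and 28.9% in hippocampal nuclei, in the same order. Htr1a, Htr1b and Htr7 were found in 1 member each and Htr1d, Htr3a, Htr5b and Htr6 in 0.

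**Figure D4:**
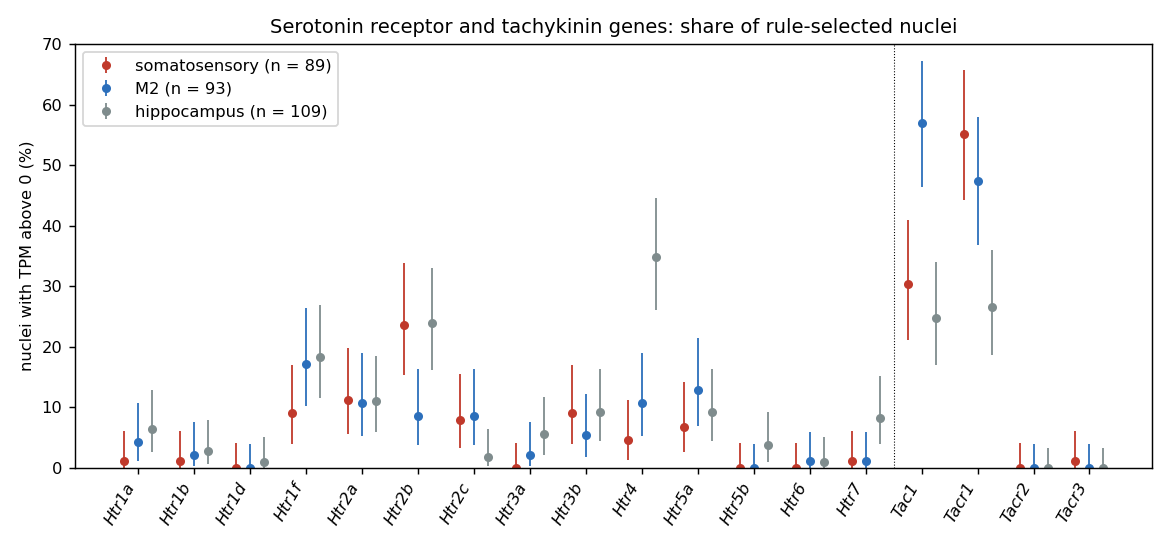
Share of rule-selected nuclei with TPM above 0 for 14 serotonin receptor genes and for Tac1 and its receptors, with exact 95% intervals, in somatosensory (n = 89), M2 (n = 93) and hippocampal nuclei. Htr2b stands at 23.6% in somatosensory against 8.6% in M2 nuclei, and Htr4 at 4.5% against 34.9% in hippocampal nuclei.

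The most abundant transcripts of the members were led by noncoding RNAs. Rn45s, the ribosomal RNA precursor, averaged 84925 TPM, Malat1, which is retained in nuclear speckles, 18786 TPM, and the imprinted RNAs Ipw and Meg3 averaged 17186 and 13752 TPM. Snhg11, a small nucleolar RNA host, averaged 10729 TPM. The next 4 genes were A130077B15Rik, 4930470H14Rik, A630089N07Rik and Gm17644, and the first 12 closed with D4Wsu53e, Zfp488 and Ndrg4. All 12 were found in every member of both plates. The most variable genes among those found in 20 to 80% of members on each plate were Ubb, a ubiquitin gene, and Hspa8, a constitutive heat shock protein gene. Ubb was found in 53.5% of scxP9 and 50% of scxP10 members with an SD of 5.42 and 5.31 on the log2(TPM + 1) scale. After them came Gm15881, 2900055J20Rik, Apoo-ps, Rpl10, Ing4, Kctd16, Commd4, Psmc4 and Vdac3, each nearly all-or-none across nuclei. Ubb, Hspa8 and Rpl10 have near-identical copies elsewhere in the genome, so their values are uncertain.

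No gene followed Pvalb or Tac1 closely across nuclei. The genes whose values were most alike to Pvalb, by the mean of Spearman's rho within the 2 plates, were led by Aifm1, a mitochondrial flavoprotein gene, at 0.40 (0.54 on scxP9 and 0.26 on scxP10), and the lowest was Safb at -0.37. For Tac1 the highest were Hspa9, a mitochondrial chaperone gene, at 0.39 and Dock4, a guanine nucleotide exchange factor gene, at 0.38, followed by Il1rap, the potassium channel gene Kcnk3 and the axon guidance receptor gene Robo1. The lowest for Tac1 were Col19a1 and Clstn2, at -0.40 and -0.39. Over 6093 genes the 1st to 99th percentile of rho ran from -0.26 to 0.24 for Pvalb and from -0.27 to 0.24 for Tac1, so these extremes were picked from the tails of many weak values.

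The 2 somatosensory plates differed from each other at many genes. Of 6952 genes found in at least 25% of members of either plate, 5.7% were higher on scxP9 by at least 1 on the log2(TPM + 1) scale and 8.76% were lower. Of 7075 genes compared with M2, 3.86% were higher and 7.51% lower by that size when plates were ignored. Differences of this size between plates of 1 region were thus more numerous than those from M2, although each plate mean rests on fewer nuclei. Of 8469 genes compared with hippocampus, 5.77% were higher and 30.7% lower by that size. For the regions a gene was therefore counted only when its mean differed by at least 1 and both somatosensory plates lay beyond every plate of the other region. With regions read on separate plates, region and plate cannot be told apart. Differences are somatosensory minus the other region, in mean log2(TPM + 1), and understate the change of low genes.

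Against M2 members, 2.98% of 7075 genes were higher in somatosensory members and 4.82% were lower, with a median difference of -0.02 over all genes. The size rule also called unchanged genes in simulated data, at a share over both directions close to that of the genes called higher here, so these shares describe the nuclei read and are not counts of changed genes. The simulation held no difference between plates of a region, so the simulated share does not cover the plate spread of the real data. With the log2 ratio of mean TPM in place of the mean of log2 values the shares were 3.59% and 3.75%, and with a pseudocount of 10 TPM they were 0.481% and 1.37%. Leaving out any 1 of the 5 plates gave 3.98 to 6.79% higher and 5.66 to 10.5% lower, since fewer plates then have to lie beyond one another. The highest difference was that of Erdr1, at 4.42, but its plate means were 9.93 and 9.65 in somatosensory and 7.71, 7.91 and 0.47 in M2 plates, and without pfcP6, the low plate, the difference was 1.98. Syt2 was next among genes with a known synaptic role, at 2.17. Its plate means were 3.36 and 3.66 in somatosensory and 2.05, 0.53 and 1.43 in M2 plates, with no overlap.

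Gabrd, the delta subunit of extrasynaptic GABA-A receptors that respond to ambient GABA, was higher than in M2 members by 2.12. Its plate means were 8.22 and 7.59 in somatosensory and 7.3, 4.84 and 5.23 in M2 plates, so 1 M2 plate, X061616p1, came near. Gabrd was found in 84.3% of somatosensory, 72% of M2 and 56% of hippocampal members. Other genes high on the list were the splicing factor gene Rbmx (2.15), the fibrillar collagen gene Col11a1 (2.04), the diacylglycerol kinase gene Dgkq (1.91), the helicase gene Dhx35, the alpha-mannosidase gene Man2c1, Adamtsl5, Gpcpd1, 5830418K08Rik and the mitochondrial ribosome gene Mrpl4, the last at 1.78. Over the 16 alternatives each of these kept its sign.

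Hspa5 and Xbp1 were both lower than in M2 members. Hspa5, the main chaperone of the endoplasmic reticulum, was lower, at -3.68, with plate means of 2.64 and 2.75 in somatosensory and 7.49, 5.53 and 6.09 in M2 plates. Xbp1, a transcription factor of the unfolded protein response, was lower, at -2.84, with 1.09 and 1.5 in somatosensory and 4.4, 3.26 and 4.75 in M2 plates. The vesicle genes Rab3b (-3.19) and Syngr3 (-2.72), the metabolic genes Tpi1 (-2.68) and Sdhb (-2.5), the adhesion gene Cntnap5c (-2.79), Pxk, the retinol carrier gene Rbp4 and the tubulin gene Tuba1b (-2.4) were lower as well. Ubb stood at -3.55 and its copy Gm1821 at -3.35, but the Ubb mean was 5.56 on scxP9 and 5.57 on pfcP4, so these plates hardly differed.

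Of the interneuron peptides, 5 of 15 were frequent enough to compare with M2 and 4 of them were lower, beside 4.82% of all genes compared. Their median difference was -1.07. These were Tac1 (-2.23), Npy (-1.02), Crhbp (-1.07) and Cort (-1.0); Cck stood at -1.08 with overlapping plates. Tac1 had plate means of 4.07 and 1.59 in somatosensory and 5.65, 4.94 and 4.59 in M2 plates, and without scxP10 its difference was -0.99. Among 3500 to 5000 detected genes Tac1 was found in 26.9% of somatosensory and 60.9% of M2 nuclei. Of 9 Kv1 and Kv3 channel genes compared, 2 were higher, among them the beta subunit gene Kcnab2 (1.05), beside 2.98% of all genes, 0 were lower, and the median was 0.57. Of 9 GABA-A subunit genes, Gabrd was higher and 3 were lower, among them Gabrb1 (-1.33), with a median of -0.24. Of 5 perineuronal net genes, brevican (Bcan, 1.23) and tenascin R (Tnr, 1.28) were higher, with a median of 0.86. Of 7 AMPA and NMDA subunit genes, Grin2a (1.58) was higher, with a median of -0.13. Erbb4 (-1.24), Abat (-1.9) and Syt13 (-1.9) were lower. Pvalb stood at 0.68 and did not meet the size rule.

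Against hippocampal members, 4.14% of 8469 genes were higher in somatosensory members and 15.8% were lower. The median difference over all genes was -0.52, and the split turned with the scaling: with that median subtracted, 10.4% were higher and 6.93% lower, and with the log2 ratio of mean TPM 7.14% were higher and 4.99% lower. Changes against hippocampus are therefore best read against -0.52. Without the nuclei carrying 3 markers of a glial, vascular or ependymal list, 8 somatosensory and 37 hippocampal nuclei, the higher calls were 15.3% of all calls, against 20.8% with them. The comparison shares its somatosensory members with the one against M2, so the 2 sets of values are not independent.

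The highest differences from hippocampal members were those of the calpain gene Capn2 (3.65), Gabrd (3.56), the phospholipase gene Plch2 (3.54), Dock4 (3.54), the coronin gene Coro6 (3.23) and Kcnip2 (3.02), whose product binds Kv4 channels. Gabrd had plate means of 8.22 and 7.59 in somatosensory plates and 2.17 to 5.94 over the 7 hippocampal plates. Bcan was higher by 2.65, with 9.87 and 8.79 in somatosensory plates and 4.81 to 7.86 in hippocampal plates. Of 6 perineuronal net genes compared, 1, Bcan, was higher and 2 were lower, with a median of -0.13. Mid1, Vwa5b2, Rhox8, Ipw and Klk14 completed the 12, with differences of 2.71 to 2.91. Lhx6 (1.38), Satb1 (1.42), Slit2 (2.06), Kcnc1 (1.82), Kcnc2 (1.47), Kcnab3 (2.17), Grin1 (1.2) and the adrenergic receptor gene Adra1a (1.42) were higher too. Of 9 medial ganglionic eminence genes compared, Lhx6 and Satb1 were higher and Nxph1 (-1.93) was lower, with a median of 0.64. Nxph1 had plate means of 4.09 and 2.91 in somatosensory plates. Of 8 AMPA and NMDA subunit genes, Grin1 was higher and 2 were lower, with a median of -0.22. Of 10 Pvalb interneuron genes compared, 3 were higher and Cplx1 (-1.84) was lower, beside 4.14% and 15.8% of all genes. Their median was 0.80, beside -0.52 over all genes. Syt2 stood at 1.72 but its plates overlapped.

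The lowest difference was that of the ubiquitin gene Ubb. Ubb (-5.66), the translation factor gene Eef1a1 (-5.65), Gm1821, Hspa5 (-5.13), Tuba1a (-4.94), Pgrmc1 (-4.87), the ferritin gene Fth1, the prion gene Prnp, the protease inhibitor gene Cst3, Itm2c and Serinc1 were lower, and Ubb, Eef1a1, Fth1 and the tubulins have near-identical copies. Of 6 interneuron peptides compared, with a median of -1.73, 2 were lower, Sst (-1.64) and Pnoc (-1.21), beside 15.8% of all genes. Npy (-2.5) and Crhbp (-2.95) had overlapping plates. Of 8 calcium-binding protein genes compared, 4 were lower, the calcium sensor genes Hpca (-4.34), Ncald (-2.15), Necab1 and Hpcal4. Of 11 GABA-A subunit genes 5 were lower, among them Gabra5 (-1.35), and 1, Gabrd, was higher. Both counts of lower genes stand beside the same 15.8% of all genes. The GABA-A subunit median was -1.35. Of 10 synaptotagmin genes 4 were lower, beside 15.8% of all genes, but their median of -0.51 was close to the -0.52 of all genes, with Syt4 at -3.45 and Syt13 at -2.49. Mbp (-2.38) and Cnp (-1.88) of myelin and Camk2a (-2.11) were lower beside the larger number of hippocampal nuclei with glial markers. Mbp and Cnp were also compared only through hippocampus. The part of depth and glial RNA in these differences was not tested.

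**Figure D5:**
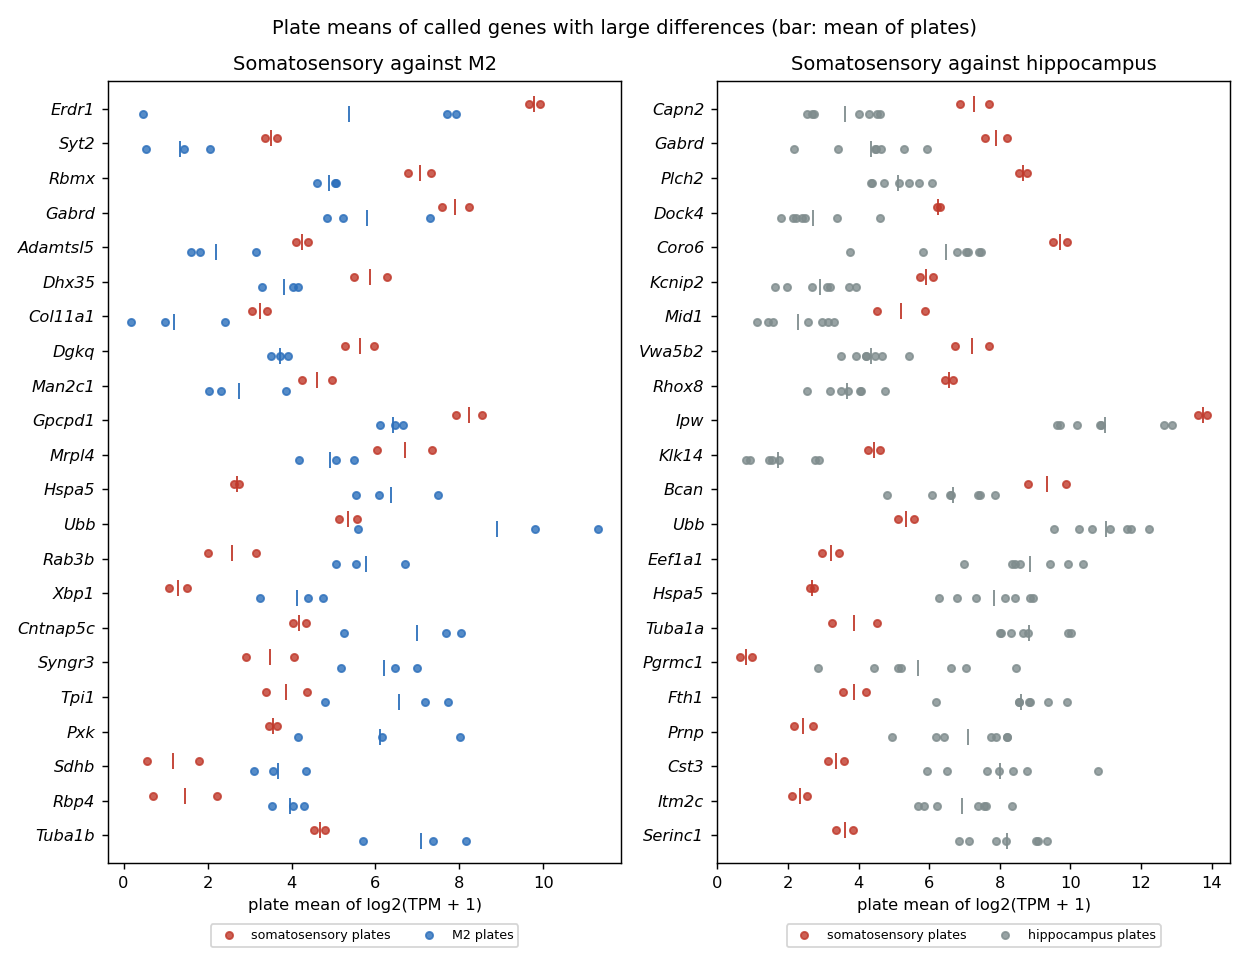
Plate means of log2(TPM + 1) for genes among those with the largest differences that met the size rule, somatosensory against M2 on the left and against hippocampus on the right; points are plates and bars the mean of plates. Somatosensory plates lie beyond every plate of the other region for each gene shown, narrowly for Ubb against M2, and 1 M2 plate sets the low Erdr1 mean.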

How the data were processed

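Per the labels' protocols, nuclei from a sucrose gradient were sorted on a violet stain and GFP and made into modified Smart-seq2 libraries in 96-well plates. The authors deposited TPM per gene and nucleus for 23420 genes, and the used columns summed to between 999999.38 and 1000000.53. RSEM, Bowtie, TopHat2 2.0.10, Seurat 2.2.0 and build mm10 are named in the submitters' processing notes without roles. Whether counting used strand is not stated.

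From 871 columns, 757 were used. Values were present for 149 of 192 somatosensory, 168 of 192 M2 and 440 of 624 hippocampal samples, of which 89, 93 and 109 met the rule. Shares are nuclei with TPM above 0. Levels are mean log2(TPM + 1) per plate, then averaged over plates with at least 8 members. A gene was compared when found in at least 25% of members of either region, and met the size rule at a difference of at least 1 with both somatosensory plates beyond every other plate. A gene below 25% in 1 region entered through the other, where it was more frequent, which favours a difference in that direction. These genes are given in the text as a share of those compared: 211 higher and 341 lower against M2, and 351 and 1339 against hippocampus; whether an alternative moved a result was judged on the counts. Named genes were all serotonin receptor and tachykinin genes and the given markers, 12 genes each for highest mean, spread and each direction of each comparison, the 8 highest and 4 lowest rho with Pvalb and Tac1, and list members that met the size rule. Other members of fixed marker lists are given as examples, and some genes that the rule names are not reported here. The members and lists were chosen with earlier results of these data known. The scripts were tested on simulated data, where they recovered most changed genes in the right direction but missed the limits first set for recovery and for calls of unchanged genes; both limits were then widened, so genes that met the size rule are described and not tested. Gene positions come from GENCODE on GRCm38, matching 338 of 346 genes. Doublets were not called. Python 3.11.15, numpy 2.4.6, pandas 2.3.3 and scipy 1.17.1 were used.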

Additional observations from a re-analysis of the deposited data

How the results depend on the processing

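No paired analysis was possible because the labels give no replicate number shared between regions and no test was made. The genes with the largest differences kept their sign under each alternative, but sizes were less stable. These genes were followed together with the given markers and the serotonin and tachykinin genes. With the log2 ratio of mean TPM, 26 differences from M2 moved and 21 stayed close. Against hippocampus 34 moved and 14 stayed close. Of genes that did not meet the size rule, Tac1 and Pvalb against hippocampus kept theirs in 13 and 14 of 15 alternatives and Lhx6 against M2 in 11 of 16; the balance of higher and lower genes against hippocampus turned with the scaling. Shares are of the genes compared in each setting. Genes higher than in M2 members were 0.481% with a pseudocount of 10 TPM and 5.95% with 0.1 TPM, and 3.98 to 6.79% with 1 plate left out; genes lower were 1.37%, 8.17% and 5.66 to 10.5%. Against hippocampus the higher share was 1.85% with 10 TPM, 7.14% with the ratio of mean TPM, 6.56% when either Gad gene sufficed and 10.4% with the median subtracted; the lower share was 8.28%, 4.99% and 6.93% for the first, second and last of these. With 3500 to 5000 detected genes the shares were 18.4% and 32.02%, with only 1 hippocampal plate left to lie beyond. Without the hippocampal plates whose names begin X041317 the lower share was 27.1%. Between the somatosensory plates 14.5% of genes differed by the same size, 1.9% with 10 TPM and 31.5% with 0.1 TPM. With 1 plate alone the Tac1 share was 17.4 to 44.2% and the share with both Pvalb and Tac1 10.9 to 37.2%. The subtracted median, the 3500 to 5000 window, the nuclei with glial markers and the left-out M2 and hippocampal plates were chosen after seeing the data. Of the summary values under an alternative, 71 stayed close to the reported value and 27 moved. With 1 sample a region no interval covers animals, and a gene at 0 in a nucleus may be undetected.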

Other observations

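Activity-regulated genes were sparse in the somatosensory members. Nr4a1 was found in 24 of 89 (27%, 18.1 to 37.4%) members, Egr1 in 22, Junb in 17 and Npas4 in 8, while Fos and Egr3 were found in 2 each, Arc in 3 and Fosb in 0. Arc was found in 3.37% of somatosensory, 14% of M2 and 16.5% of hippocampal members. Among receptors for other modulators, the muscarinic receptor gene Chrm1 was found in 61.8% of members, the adrenergic receptor gene Adra1a in 47.2%, the delta opioid receptor gene Oprd1 in 44.9% and the mu opioid receptor gene Oprm1 in 2 nuclei. The cannabinoid receptor gene Cnr1 was found in 30.2% of scxP9 and 10.9% of scxP10 members. Gjd2, the gap junction gene that couples interneurons, was found in 22.5% of members, against 16.1% of M2 and 25.7% of hippocampal members.

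Sodium channel genes were widespread. Scn1a and Scn8a were found in 93.3% and 94.4% of somatosensory members, Scn2b in 66.3% and Scn4b in 14.6%. Of 8 sodium channel genes compared with M2, 0 were higher and 0 were lower by the size rule, beside 2.98% and 4.82% of all genes. For 8 genes a count of 0 is near those shares. Against hippocampus 2 of 8, Scn2b (-2.83) and Scn3b (-1.51), were lower, beside 15.8% of all genes. The sodium channel median there was -0.28, beside -0.52 over all genes.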
